A study of Caenorhabditis elegans with 2 samples.

Results

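The members described here are ChIP-seq peaks at promoters of protein-coding genes of 1 strand only. They were taken from the authors' pooled thresholded list of 2228 peaks. A member's summit lay from 1000 bp upstream to 200 bp downstream of the 5' end of protein-coding genes that all lie on the same strand, and not within 100 bp of a tRNA gene. The rule found 646 members, 29.0% of the list (27.1 to 30.9%, exact 95% interval). The rule itself used no signal value, although the authors' list was already thresholded. Of the other peaks, 281 lay in windows of genes on both strands, 1003 lay in no protein-coding window, and 298 lay near a tRNA gene. The samples were whole Caenorhabditis elegans larvae of strain RW12291 at the L4 stage (47.5 hours), synchronised by bleaching and starvation of L1 larvae, in which the endogenous Y48G9A.11 gene on chromosome III carries TY1, EGFP and 3xFLAG tags inserted by CRISPR. Chromatin was precipitated with an antibody against GFP in 2 biological replicates of 1 group. No animals without the tag were analysed here, so capture that does not depend on the tagged protein was not tested. Each value below is the authors' signal for a peak, which is set against a control. Its scale is not given, and read depth is unknown.

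RefSeq names the product of Y48G9A.11 a C2H2-type domain-containing protein. C2H2 zinc fingers are a fold that many transcription factors use to read DNA. A promoter is the stretch of DNA at which transcription of a gene begins, and in C. elegans many transcripts are later trimmed and joined to a short leader RNA by trans-splicing. The annotated 5' end of such a gene can then be the splice site rather than the first transcribed base, and the true start can lie further upstream. Many C. elegans genes stand head to tail on 1 strand, and at such promoters a sequence can be read in relation to a single direction of transcription.

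Many of the strongest members shared a long sequence, whole or in part (the long element of the plots). It has 2 parts, one around the word CTCCGNAAT and one around TTGTTTANC. Copies were searched only with the 2 words beginning 21 to 23 bases apart, so other spacings were not examined. The 12 strongest members that pass the score described below, and whose copy overlaps no annotated exon, are shown because the sequence recurs in them at unrelated genes. Capitals mark the 19 bases scored as the first part and the 17 bases scored as the second, and lower case marks the bases between. In rps-28 and Y38C1AA.12 the capitals of the second part do not resemble TTGTTTANC, and only the first part is present. Genome bases are those of build WBcel235 (ce11), from RefSeq.
cmtr-1: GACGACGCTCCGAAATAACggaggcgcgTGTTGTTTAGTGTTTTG
rps-28: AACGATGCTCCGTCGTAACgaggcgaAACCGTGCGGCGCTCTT
F13B12.1: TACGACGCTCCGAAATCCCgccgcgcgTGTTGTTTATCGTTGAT
nyn-1: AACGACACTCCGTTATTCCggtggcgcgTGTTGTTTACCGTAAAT
dcap-1: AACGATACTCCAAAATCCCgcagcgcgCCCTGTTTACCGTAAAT
H35B03.2: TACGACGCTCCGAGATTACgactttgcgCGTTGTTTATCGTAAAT
mecr-1: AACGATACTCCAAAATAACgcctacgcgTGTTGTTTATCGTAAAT
haf-2: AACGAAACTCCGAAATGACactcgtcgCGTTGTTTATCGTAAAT
exos-2: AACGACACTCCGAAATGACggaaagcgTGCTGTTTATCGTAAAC
C26B2.7: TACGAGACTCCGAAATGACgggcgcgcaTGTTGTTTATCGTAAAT
F56A8.3: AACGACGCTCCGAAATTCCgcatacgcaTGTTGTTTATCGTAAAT
Y38C1AA.12: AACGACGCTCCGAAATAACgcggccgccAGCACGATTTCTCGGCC

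Both words stood without a mismatch in F13B12.1, haf-2, C26B2.7 and F56A8.3. The first word alone did so in cmtr-1, exos-2 and Y38C1AA.12, and the second alone in nyn-1, H35B03.2 and mecr-1. In rps-28 and dcap-1 neither word was exact, and the copy still passed the cut-off described below. The copy at cmtr-1 lay at II:15025997-15026041 on the plus strand, and that at rps-28 lay at IV:1659222-1659264 on the plus strand. The copy at F13B12.1 lay at IV:10425279-10425322 on the minus strand, and that at nyn-1 lay at IV:13687207-13687251 on the plus strand. The copy at dcap-1 lay at IV:1054920-1054963 (minus), that at H35B03.2 at IV:5731759-5731803 (plus), and that at mecr-1 at II:13187343-13187387 (minus). The copies at haf-2, exos-2 and C26B2.7 lay on the minus strand, at II:7356992-7357035, IV:6415351-6415394 and IV:8015776-8015820. The copies at F56A8.3 and Y38C1AA.12 lay on the plus strand, at III:13256635-13256679 and IV:192202-192246.

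The surroundings of the summit are shown for the 6 strongest of the members whose 120 bp overlap no annotated exon, and for 3 members without the long sequence that hold a leading 6-mer. Each line gives 120 bp around the summit on the gene's own strand, with the parts of the long sequence in capitals. In nasp-2 the capitals mark the 6-mer GCGCGA instead. In rpl-35 they mark GCCGCG, which is the reverse complement of a leading 6-mer. In F28F8.7 the capitals stand for CCCGGC.
cmtr-1: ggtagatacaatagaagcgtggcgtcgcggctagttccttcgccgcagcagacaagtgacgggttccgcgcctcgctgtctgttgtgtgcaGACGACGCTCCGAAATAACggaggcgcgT
rps-28: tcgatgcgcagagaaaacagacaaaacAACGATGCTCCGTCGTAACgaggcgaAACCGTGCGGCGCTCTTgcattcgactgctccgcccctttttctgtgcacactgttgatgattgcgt
F13B12.1: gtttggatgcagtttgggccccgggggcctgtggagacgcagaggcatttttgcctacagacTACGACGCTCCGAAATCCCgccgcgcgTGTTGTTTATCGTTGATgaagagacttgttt
nyn-1: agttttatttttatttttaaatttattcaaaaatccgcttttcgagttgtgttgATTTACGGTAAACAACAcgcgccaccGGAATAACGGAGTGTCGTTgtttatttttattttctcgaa
dcap-1: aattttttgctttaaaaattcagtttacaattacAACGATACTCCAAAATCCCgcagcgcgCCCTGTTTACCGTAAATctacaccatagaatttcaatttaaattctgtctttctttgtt
H35B03.2: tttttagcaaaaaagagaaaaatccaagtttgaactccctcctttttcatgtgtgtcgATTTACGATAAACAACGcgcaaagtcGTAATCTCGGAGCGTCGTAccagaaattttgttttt
nasp-2: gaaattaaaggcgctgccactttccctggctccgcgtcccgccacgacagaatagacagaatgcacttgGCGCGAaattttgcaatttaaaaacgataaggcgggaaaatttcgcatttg
rpl-35: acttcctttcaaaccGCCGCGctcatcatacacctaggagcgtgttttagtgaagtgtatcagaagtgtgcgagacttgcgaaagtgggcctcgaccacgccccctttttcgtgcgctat
F28F8.7: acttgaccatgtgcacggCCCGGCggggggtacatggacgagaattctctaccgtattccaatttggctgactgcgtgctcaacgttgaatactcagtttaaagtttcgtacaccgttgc

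The long sequence, or its first part in rps-28, read along the gene's strand in cmtr-1, rps-28, F13B12.1 and dcap-1, and against it in nyn-1 and H35B03.2. In cmtr-1 the printed stretch ends inside the second part. These stretches lay at II:15025906-15026025, IV:1659195-1659314, IV:10425265-10425384, IV:13687186-13687305, IV:1054878-1054997 and IV:5731742-5731861, and those without the long sequence at V:13312412-13312531, III:7854634-7854753 and V:15590357-15590476.

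The 15 strongest members included genes that handle RNA and genes for mitochondrial enzymes, a description of single genes with no test, and their signal was close in both replicates. The peak at cmtr-1, which encodes a methyltransferase of the mRNA cap, had a signal of 1884.9 in replicate 1 and 1809.4 in replicate 2 (pooled 3680.4). Its summit lay 148 bp upstream of the 5' end, within II:15025745-15026150, and 73 bp upstream of the snoRNA gene Y53F4B.47 on the opposite strand. The peak at rps-28, for a protein of the small ribosomal subunit, had 1517.5 in replicate 1 and 1342.8 in replicate 2 (pooled 2852.3, IV:1659082-1659423). It stood 436 bp upstream of rps-28 and 855 bp upstream of Y41D4B.4 on the same strand, so its gene cannot be told apart. F13B12.1, an IWS1-like gene, had 999.4 in replicate 1 and 860.7 in replicate 2 (pooled 1860.2, IV:10425156-10425518), with the summit 690 bp upstream. The next member, dld-1, had a pooled signal of 1498.2.

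Other strong members lay at genes with the same kinds of role. The gene dld-1, for the dihydrolipoyl dehydrogenase of mitochondrial enzyme complexes, had 772.9 in replicate 1 and 708.6 in replicate 2 with the summit 249 bp upstream (IV:14464099-14464417). The gene mecr-1, for an enoyl reductase of mitochondrial fatty acid synthesis, had 513.5 in replicate 1 and 461.5 in replicate 2 (II:13187206-13187516). C26B2.7, named for the cytochrome c oxidase assembly protein COX20, had 448.4 in replicate 1 and 425.8 in replicate 2 (IV:8015696-8015971). All of these act in mitochondria. Among genes of RNA processing, dcap-1, for an mRNA-decapping enzyme, had 612.7 in replicate 1 and 561.5 in replicate 2 (IV:1054760-1055130). H35B03.2, for a subunit of ribonuclease P, which trims tRNA precursors, had 475.4 in replicate 1 and 588.9 in replicate 2 (IV:5731624-5731953). The gene exos-2, for a component of the RNA-degrading exosome, had 447.5 in replicate 1 and 423.9 in replicate 2 (IV:6415218-6415496). The ribonuclease gene nyn-1 had 727.3 in replicate 1 and 749.5 in replicate 2 (IV:13687066-13687407).

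The remaining members among the strongest 15 were Y39B6A.13, haf-2, D1069.3, F56A8.3 and Y38C1AA.12. Y39B6A.13 had 616.3 in replicate 1 and 662.6 in replicate 2, with the summit 3 bp downstream of its 5' end, in its own UTR (V:19119229-19119604). The ABC transporter gene haf-2 had 469.3 in replicate 1 and 489.9 in replicate 2, with the summit 601 bp upstream (II:7356900-7357178). D1069.3, named for hyccin, had 417.3 in replicate 1 and 430.7 in replicate 2 (II:347793-348106). F56A8.3, which encodes a leucine-rich repeat protein, had 416.3 in replicate 1 and 413.2 in replicate 2 (III:13256520-13256796), and Y38C1AA.12 had 393.1 in replicate 1 and 410.7 in replicate 2 (IV:192117-192377). All 15 passed the score for the long sequence, and 12 of them scored above 0 in both of its parts. The other 3, rps-28, D1069.3 and Y38C1AA.12, did so in the first part alone. Neither replicate was the higher in every case.

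Signal of the members fell off steeply from these few. The pooled signal ranged from 2.19 to 3680.4 with a median of 137 (quartiles 107 and 211). All 24 members with a pooled signal under 50, among them sqd-1 (2.19), overlapped a stronger listed peak, as did 25 members in all. The median was 175 in windows of genes on both strands, 117 away from promoters and 150.7 near tRNA genes. Members thus had 0.782 times the median of peaks in windows of genes on both strands and 1.17 times that of peaks away from promoters. In the replicates' own lists these ratios were 0.899 and 1.21 in replicate 1 and 0.803 and 1.18 in replicate 2. Peaks near tRNA genes had medians of 83.7 in replicate 1 and 92.8 in replicate 2, below the members' 94.8 and 101.9, although they were above the members in the pooled list. No test was made, since peaks of a list are not replicates.

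A large share of members was found again in each replicate alone. Of the 646 members, 266 (41.2%, 37.4 to 45.1%) overlapped a peak in the own thresholded lists of both replicates, 110 only that of replicate 1 and 93 only that of replicate 2. The remaining 177 (27.4%) were in neither, although 171 of them had a candidate in both replicates' ranked lists. Of the 177, 119 (67.2%) stood unchanged in the conservative list. The share in both lists was 57.7% in windows of genes on both strands (51.6 to 63.5%), 46.6% near tRNA genes (40.9 to 52.5%) and 27.6% away from promoters (24.9 to 30.5%). No test between these classes was made. Recovery followed signal closely. This is in part built in, since pooled signal is close to the sum of both replicates. A member that overlaps a stronger peak, such as sqd-1, can also count as recovered through that peak. With members cut into 5 groups of 20% by pooled signal, recovery was 100% in the strongest group, 79.8% in the next, 20.2% in the middle group, 2.33% in the next and 3.85% in the weakest. Among the stronger 50% of all listed peaks the share of members in both lists was 75.4%. The strongest members in neither list were sas-7 (pooled 145, 57.3 in replicate 1 and 75.9 in replicate 2), slrp-1 (pooled 145, 66.8 in replicate 1 and 70.1 in replicate 2) and tofu-6 (pooled 140, 57.3 in replicate 1 and 80.6 in replicate 2).

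**Figure D1:**
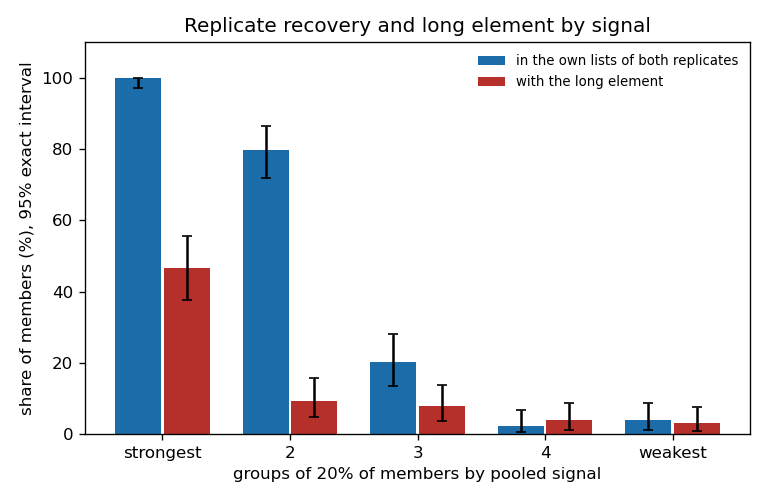
Share of members in the own thresholded lists of both replicates and share that passed the score for the long sequence, whole or in part, for 5 groups of 20% of the members by pooled signal (bars, with exact 95% intervals). Recovery drops from 100% in the strongest group to 2.33% in the next to weakest, and the share that passed from 46.5% in the strongest group to 3.08% in the weakest.

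For 636 members a candidate peak in both replicates' ranked lists gave a value in each. The labels name the list as thresholded by irreproducible discovery rate, which scores agreement in rank between peak lists. Agreement between replicates among members may therefore be raised by how listed peaks were chosen. Spearman's rho between the replicates across these members was 0.677, a description over peaks that share both libraries. Within the strongest 20% it was 0.836. The ratio of replicate 1 to replicate 2 had a median of 0.965, and 502 members (78.9%) lay within 1.5-fold. The 2 replicates' summits were 20 bp apart in the median member. The largest departures in the strongest 20% were pcn-1, which encodes the PCNA clamp, with 120 in replicate 1 and 233 in replicate 2, and the summit 150 bp upstream of eif-2Bgamma, a translation initiation factor subunit, with 215 in replicate 1 and 88.6 in replicate 2. F55A11.11 (124 in replicate 1 and 215 in replicate 2) and zen-4 (147 in replicate 1 and 224 in replicate 2) were lower in replicate 1, while npp-23 (192 in replicate 1 and 107 in replicate 2) and Y50D4C.5 (228 in replicate 1 and 141 in replicate 2) were higher in it. With 2 replicates, which value is nearer the group's level cannot be told.

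**Figure D2:**
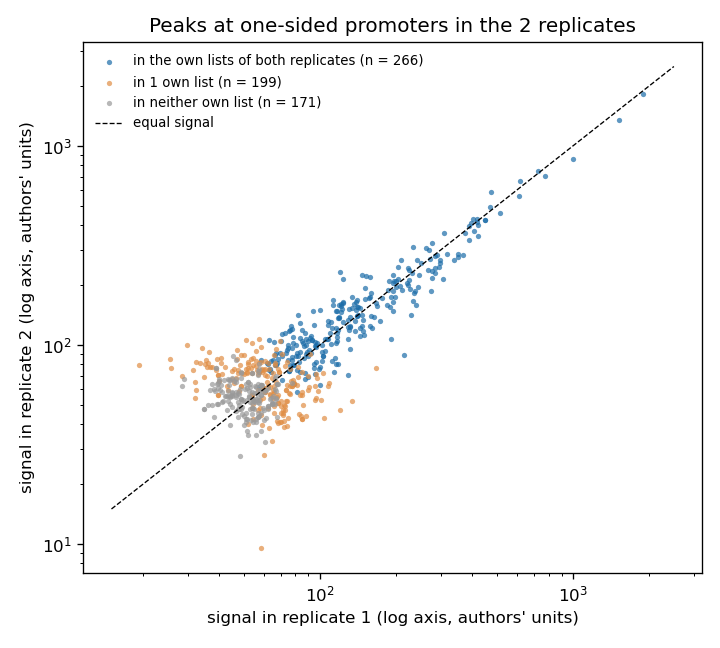
Signal of each member in replicate 1 (horizontal) and replicate 2 (vertical), both on log axes in the authors' units, for the 636 members with a candidate peak in both ranked lists. Points are coloured by presence in the own thresholded lists, and the dashed line marks equal signal; members found in both lists follow the line up to 1884.9 and 1809.4, and those in neither list cluster at low signal in both.

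Most summits lay upstream of the 5' end and outside protein-coding genes. The upstream share is largely set by the window, which reaches 1000 bp upstream and only 200 bp downstream. No preference for the upstream side is read from it. The median summit was 248 bp upstream of the annotated 5' end (quartiles at offsets of -499.8 and -88.25 bp, negative being upstream), against 234 bp in the own list of replicate 1 and 242 bp in that of replicate 2. Of all members, 540 (83.6%, 80.5 to 86.4%) had the summit upstream, and 219 (33.9%, 30.3 to 37.7%) had it within 250 bp upstream. Density was highest between 250 and 100 bp upstream, with 103 members per 100 bp. It was 64.0 per 100 bp from 500 to 251 bp upstream and also within the last 100 bp, and 25.2 per 100 bp beyond 750 bp. Downstream of the 5' end it was 53.5 per 100 bp in the first 100 bp and 52 in the next. These positions depend on the window by construction, and a window of 2000 bp moved the median to 444 bp upstream.

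Signal and recovery changed along the promoter. Between 250 and 100 bp upstream the median signal was 169 and 58.1% of 155 members were in both replicates' lists. In the last 100 bp before the 5' end these were 163 and 51.6% of 64 members. Beyond 750 bp upstream they were 115.6 and 22.2% of 63 members, the strongest of them at col-8 (786, 866 bp upstream). Over 100 bp inside the gene they were 104.6 and 7.69% of 52 members, the strongest of them at rla-1, for an acidic protein of the ribosomal stalk (267, 125 bp downstream). The members farthest inside genes were thus the least often found in both replicates' own lists, and they also had the lowest median signal.

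**Figure D3:**
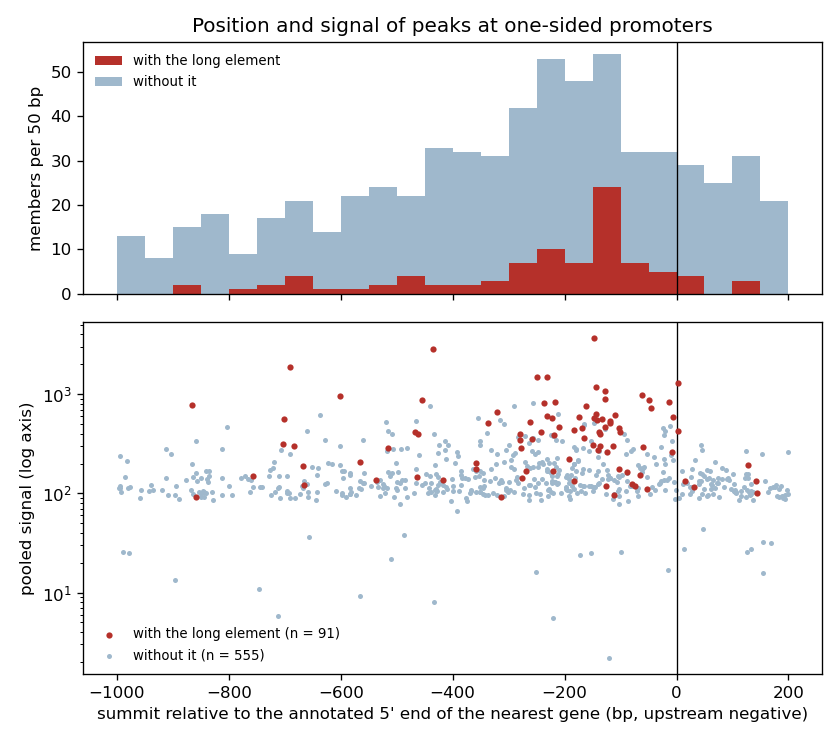
Upper panel, number of members per 50 bp of summit position relative to the annotated 5' end of the nearest gene (0, vertical line; upstream negative), with and without a pass of the score for the long sequence. Lower panel, pooled signal (log axis) at each position; the 91 members that passed have a median position 169 bp upstream and reach 3680.4, and the others do not exceed 818.

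Against the annotation, 441 members (68.3%, 64.5 to 71.8%) had a summit outside every protein-coding gene. The share was 86.1% (81.5 to 89.9%) in windows of genes on both strands and 37.3% (34.3 to 40.4%) away from promoters. A further 64 members lay in a coding exon of their own gene (median signal 112.1), 23 in its introns and 19 in its UTRs. Another 45 lay in an intron of a different gene, 32 in a UTR of one and 22 in a coding exon of one. Members outside genes had a median signal of 150.6. The strongest in each place were cmtr-1 outside genes, rla-1 in its own coding exon, F28F8.7 in its own intron (259, 200 bp downstream) and Y39B6A.13 in its own UTR. In other genes they were col-8, whose peak lies in an intron of rfl-1, ptp-2, whose peak lies in a UTR of frh-1 (401), and mma-1, whose peak lies in a coding exon of ril-2 (206).

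The neighbour upstream lay on the same strand for 445 members (68.9%), at a median gap of 446 bp. For 160 members (24.8%) it lay on the opposite strand at a median gap of 2976 bp, and for 41 it overlapped the gene. The rule leaves out peaks in windows of genes on both strands, so close neighbours on the opposite strand are rare by construction. The gap was up to 1000 bp for 354 of the 445 members and for 17 of the 160. These shares and gaps thus follow in part from the rule. The median signal was 132 with a same-strand neighbour, 149.5 with an opposite-strand neighbour and 128.9 with an overlapping one. Genes of other kinds were near some members. The window of a non-coding gene or pseudogene held 118 members (18.3%), and for 74 of them (11.5% of members) such a gene lay on the opposite strand. These 74 had a median signal of 164, against 135 for the 572 members with no gene of any kind on the opposite strand. The share of other listed peaks or of all promoters near such genes is not given here. Whether the members' share is high or low thus cannot be told.

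The peaks nearest to the limits of the rule had pooled signals from 99.3 to 274. Just inside the upstream limit lay the peak at mrpl-42 (offset -996 bp, 112.2), and just outside it one at phlp-2 (offset -1008 bp, 99.3). Just inside the downstream limit lay F28F8.7 (200 bp, 259), and just outside it Y50D4A.1 (202 bp, 99.5). The member nearest to a tRNA gene was at T04D3.8, 497 bp from it (274), and the peak left out at the greatest distance from one was at T04D3.5, 63 bp from it (172).

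Members carried 626 protein-coding genes in their windows, 3.13% of the 19973 annotated, and 24 members (3.72%) had genes of the same strand in their window beyond the nearest. The own list of replicate 1 gave 387 such genes and that of replicate 2 gave 375. By nearest gene, 37 genes had 2 members and 2 had 3. These counts include the 25 members that overlap a stronger listed peak, so some of these genes may have 1 peak called more than once. At ric-8, a regulator of heterotrimeric G proteins, the summits lay at offsets of -704, -75 and 126 bp with pooled signals of 316, 119 and 25.4. At pro-1, a gene of pre-rRNA processing, they lay at -133, -763 and -979 bp with 141, 103 and 24.8. At ric-8 the weakest member and the one above it had the same values, 85.2 in replicate 1 and 42.4 in replicate 2. At pro-1 such a pair had 48.8 in replicate 1 and 62.3 in replicate 2. At the tagged gene itself, the window of Y48G9A.11 held 1 candidate peak 120 bp upstream, with 21.8 in replicate 1 and 62.3 in replicate 2. It was not in the thresholded list, so Y48G9A.11 has no member. Within 1000 bp of the gene, its body included, 1 listed peak lay outside that window.

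Genes for ribosomes, mitochondria and the germ line held members more often than the 3.13% of all protein-coding genes, and large receptor families less often. The lists were matched by symbol and are described by counts, with no test of a list. Among cytosolic ribosomal proteins 14 of 82 genes (17.1%, 9.66 to 27%) had a member, led by rps-28, rpl-35 (406 in replicate 1 and 372 in replicate 2) and rpl-3 (422 in replicate 1 and 354 in replicate 2). Among mitochondrial ribosomal proteins 12 of 70 genes (17.1%, 9.18 to 28.0%) had one, led by mrpl-11 (269 in replicate 1 and 301 in replicate 2), mrpl-20 (194 in replicate 1 and 226 in replicate 2) and mrps-31 (147 in replicate 1 and 141 in replicate 2). For oxidative phosphorylation it was 8 of 68 genes (11.8%, 5.22 to 21.9%). These were led by ndua-5 of complex I (268 in replicate 1 and 238 in replicate 2) and the cytochrome oxidase subunits cox-5B (246 in replicate 1 and 223 in replicate 2) and cox-5A (167 in replicate 1 and 162 in replicate 2).

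Among genes named for the germ line and oocyte, 17 of 107 (15.9%, 9.54 to 24.2%) had a member. The strongest were glh-1, a germ granule helicase (200 in replicate 1 and 210 in replicate 2), cpg-1, a chondroitin proteoglycan of the eggshell (191 in replicate 1 and 174 in replicate 2), and syp-5, of the synaptonemal complex (117 in replicate 1 and 147 in replicate 2). The nuclear pore and transport list had 6 of 40 (15%, 5.71 to 29.8%), led by npp-13 (419 in replicate 1 and 402 in replicate 2), npp-6 (141 in replicate 1 and 154 in replicate 2) and npp-23. The list of RNA polymerase, TAF and Mediator genes had 8 of 76 (10.5%, 4.66 to 19.7%). Its strongest were taf-8, a TFIID subunit (373 in replicate 1 and 363 in replicate 2), and rpb-6, a subunit shared by the RNA polymerases (250 in replicate 1 and 258 in replicate 2). The symbol match also placed rpa-2 there (277 in replicate 1 and 325 in replicate 2), which RefSeq names as a replication protein A gene.

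Lists of other housekeeping processes had smaller shares, and their intervals reach down to or near the background. Chromatin regulators had 8 of 95 (8.42%, 3.71 to 15.9%), led by lin-9, set-2 and isw-1. The cell cycle and replication list had 6 of 70 (8.57%, 3.21 to 17.7%), led by cdc-48.1 (276 in replicate 1 and 216 in replicate 2), pcn-1 and mcm-2, a subunit of the replicative helicase. Chaperones had 6 of 81 (7.41%, 2.77 to 15.4%), led by hsp-4, the BiP homolog of the endoplasmic reticulum (151 in replicate 1 and 194 in replicate 2), hsp-1 and cyn-10. Histones had 6 of 83 (7.23%, 2.70 to 15.1%), led by the centromeric hcp-3 (236 in replicate 1 and 182 in replicate 2), then hil-4 and his-47. Tubulins, kinesins and dynein had 4 of 45 (tba-2, zen-4 and tbg-1 the strongest), splicing factors 4 of 48 (sna-1, snr-4 and rnp-1), the proteasome 3 of 33 (pbs-3, pas-1 and rpt-3), translation factors 3 of 34 (eif-3.B, eif-2Bgamma and eif-3.G) and small RNA pathways 3 of 55 (ego-1, wago-4 and tofu-6). Mitochondrial import had 1 of 14 (tomm-20), and muscle structure 1 of 48 (act-2).

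No member was found at the 31 tRNA synthetase genes, the 20 V-ATPase genes or the 38 intestine and yolk genes, whose exact 95% intervals reach 11.2%, 16.8% and 9.25%. Chemoreceptors had 4 of 1364 genes (0.293%, 0.0800 to 0.749%), nuclear hormone receptors 1 of 269 (nhr-236), and C-type lectins and lysozymes 1 of 310 (clec-169). F-box, MATH and BATH genes had 3 of 395 (0.759%, 0.157 to 2.20%; fbxa-83, fbxb-72 and fbxa-95). Neuropeptides and insulins had 1 of 140 (ins-39), and cuticle collagens had 3 of 180 (col-8, col-63 and col-111). Whether expression in L4 animals, chromatin openness or the tagged protein separates these families was not tested.

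**Figure D4:**
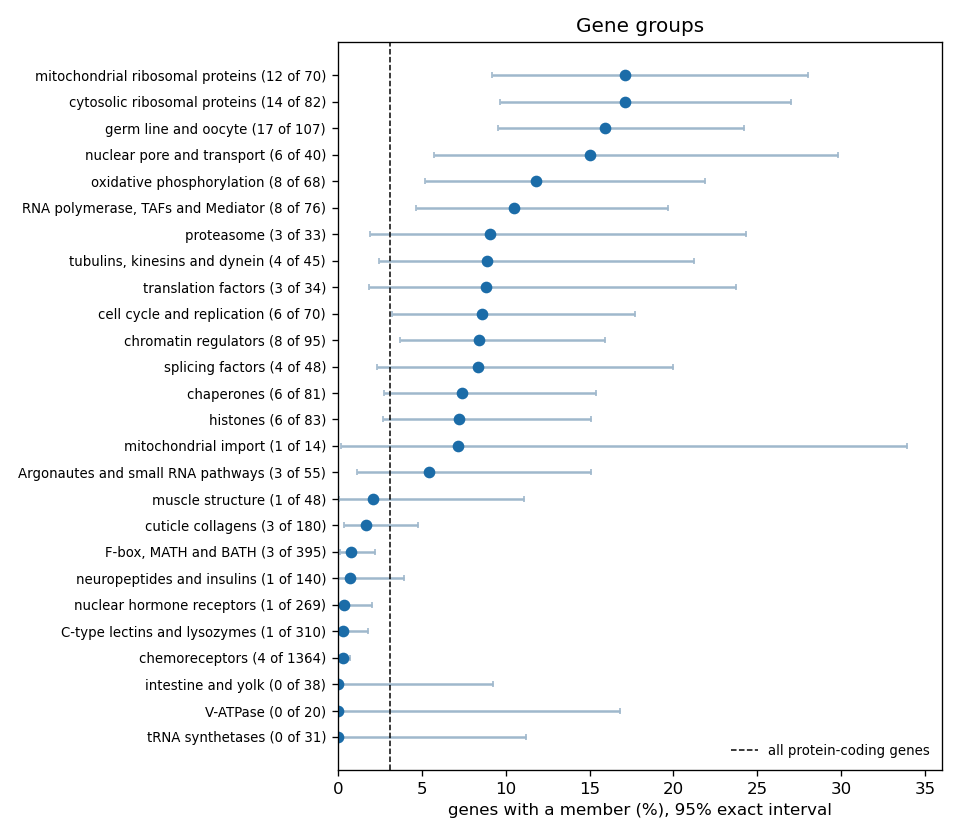
Share of genes of each list with a member in the window (points, with exact 95% intervals; counts beside each name). The dashed line is the share over all protein-coding genes, 3.13%; ribosomal, germ line and nuclear pore lists lie above it with their whole intervals, and chemoreceptor, F-box, nuclear hormone receptor and lectin lists lie below it.

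Members were rare on the X chromosome. It held 18 members (2.79%, 1.66 to 4.37%), while chromosomes I to V held 109 to 136 each. As a share of each chromosome's protein-coding genes, 0.659% of X genes had a member (0.391 to 1.04%), against 2.24% on V and 3.69 to 4.77% on I to IV. Of the candidate peaks at one-sided promoters, 18 of 2271 on X (0.793%) reached the thresholded list, against 3.12 to 5.27% on the other chromosomes. The X held 44% of the 298 listed peaks near tRNA genes, 7.48% of those away from promoters and 0 of the 281 in windows of genes on both strands (exact 95% interval up to 1.3%). The median signal of the X members was 110, and on the other chromosomes it was 134 to 141.

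At the members' summits G and C were frequent. In the 100 bp around the summit 44.9% of bases were G or C, against 36% in flanks 250 to 350 bp away and 35.4% in the nuclear genome. The share was 39.9% at candidate peaks of one-sided promoters that did not reach the list, 45.9% at listed peaks in windows of genes on both strands and 45.6% at those away from promoters. It was 46% in the strongest 20% of members and 43.4% in the weakest. In the strongest 20% the rise was narrow, with 49.98% in the 25 bp after the summit and 30.3% at 138 bp upstream and 30.4% at 137 bp downstream.

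**Figure D5:**
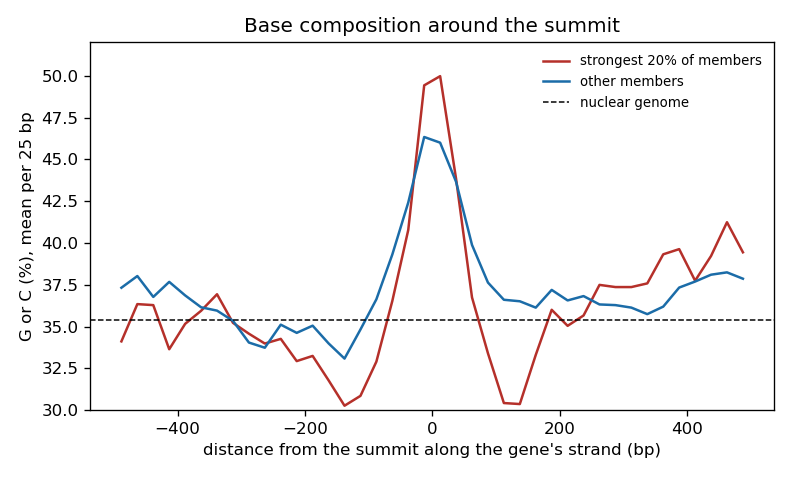
G or C content (vertical, mean per 25 bp) by distance from the summit along the gene's strand, for the strongest 20% of members and for the other members, with the level of the nuclear genome dashed. Both lines rise at the summit, to 49.98% and 46.3%, and the strongest 20% also dips to about 30.3% on either side.

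The 6-mers, each counted with its reverse complement, were compared between the summit and the flank by an exact McNemar test with Benjamini-Hochberg adjustment. At an adjusted p under 0.05, 223 6-mers (10.7%) were more frequent at the summit and 145 (6.97%) less frequent. The own list of replicate 1 gave 124 more frequent ones and that of replicate 2 gave 160. Of the 223, 180 had 4 or more G or C and 161 held CG, which 604 of all tested 6-mers do. ACGCGC was present at 90 summits and 6 flanks (exact McNemar test, adjusted p = 5.21e-17), and CGCGCC stood at 82 summits and 8 flanks (exact test, adjusted p = 1.44e-13). Next came CGCGCA at 72 summits and 6 flanks (exact test, adjusted p = 3.64e-13) and GCGCGA at 70 summits and 5 flanks (exact test, adjusted p = 5.11e-13). All of these hold an alternating run of C and G and overlap one another. Among the less frequent ones, TATATA was present at 3 summits and 32 flanks (exact test, adjusted p = 1.89e-05), ATTATA stood at 17 summits and 63 flanks (exact test, adjusted p = 8.74e-06) and AGATAA was found at 16 summits and 57 flanks (exact test, adjusted p = 1.35e-05). Neighbouring 6-mers overlap, and peaks were treated as independent. The test made no adjustment for base composition, and G or C was 44.9% at summits against 36% in flanks. Specific words and base composition were not separated.

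Since the protein-coding genes at each member have a single direction, strands could be compared as well. An exact binomial test with Benjamini-Hochberg adjustment called 0 6-mers (0%) as differing between the gene's strand and the other strand in the 100 bp around the summit, and 122 had an unadjusted p under 0.05. Within 200 bp it called 17. Most of these were rich in T on the gene's strand, such as TTTTTC, present only on it at 196 members and only on the other strand at 100 (exact binomial test, adjusted p = 5.15e-05), and TTTTTT, at 178 and 92 (exact binomial test, adjusted p = 0.000185). CTCCGT, at 50 and 18 (exact binomial test, adjusted p = 0.0264), and CCGCGC, at 57 and 23 (exact binomial test, adjusted p = 0.0335), were among the called ones without a run of T.

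Known promoter words were counted in the same 100 bp on both strands, for members, flanks and the same length centred about 150 bp upstream of all protein-coding 5' ends. TTCCCGCC, a word bound by E2F factors, was present at 15 summits (2.32%, 1.31 to 3.80%) and 2 flanks (0.310%), and in 0.396% of all promoters. CTGCGTCTC, the core of the ethanol and stress response element, was present at 27 summits (4.18%, 2.77 to 6.02%) and 4 flanks (0.619%), and in 1.23% of all promoters. CCGCCC was at 28 summits (4.33%) and 7 flanks (1.08%), and in 2.53% of all promoters. TATAAA, the TATA box, went the other way, with 27 summits (4.18%, 2.77 to 6.02%) and 71 flanks (11.0%), and 13.2% of all promoters. So did TGATAA, bound by zinc finger factors of intestine and hypodermis, with 26 summits and 55 flanks, and 11.7% of all promoters. The run TTTTTTTT stood at 34 summits and 69 flanks, and in 13.3% of all promoters. The splice acceptor word TTTCAG was at 81 summits and 126 flanks, and in 15% of all promoters. At candidate peaks of one-sided promoters outside the list, TTCCCGCC was present in 0.689%, CTGCGTCTC in 1.01% and CCGCCC in 3.23%. The share for CCGCCC lies inside the members' interval (2.9 to 6.2%). TATAAA was present in 7.92% of these candidates, TGATAA in 7.13%, TTTTTTTT in 9.01% and TTTCAG in 18.4%. CCAAT stood at 120 summits and 120 flanks, CACGTG at 11 and 11, TTTGAA at 156 and 144, GAGAGAGA at 8 and 5, GAANNTTC at 42 and 59, and GTAAACA at 13 and 11. Members with the E2F word were led by nasp-2, Y55F3BL.6 and npp-23, and 11 of the 15 were in both replicates' lists. Of the 13 members with GTAAACA, the DAF-16 word, 9 passed the score for the long sequence, whose second part can contain it in reverse.

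The long sequence was scored in every member, as the sum of the log2 scores of its 2 parts. It was noticed in these members, so its counts are a description with no test. A scoring matrix was made from 23 occurrences in listed peaks that are not members, and its cut-off was set so that 1% of the flanks of such peaks passed. This cut-off was a sum of -8.56, so copies with a sum below 0 passed too, such as those at rps-28 (-6.4) and mrpl-11 (-2.1). Around the summit (100 bp to each side) 91 of 646 members passed (14.1%, 11.5 to 17%), and 10 of the members' flanks did (1.55%). At the 16536 candidate peaks of one-sided promoters outside the list 1.47% passed, and 2.12% of all 19973 promoters did in the same length 50 to 250 bp upstream. In windows of genes on both strands 71 of 281 peaks passed (25.3%, 20.3 to 30.8%) and away from promoters 66 of 1003 (6.58%, 5.13 to 8.30%), of which some made the matrix. Near tRNA genes 1 of 298 did. In the own list of replicate 1 the members' share was 20.6% and in that of replicate 2 it was 20.4%. It was 9.29% within 50 bp of the summit, and 17 members (2.63%) held both 9-base words exactly. A strong match to 1 part can pass alone. Of the 91 members, 64 (9.91% of all members) scored above 0 in both parts, 20 in the first part only, 6 in the second only and 1 in neither.

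Members that passed the score were concentrated among the strongest. They were 21 of the strongest 25, 36 of the strongest 50 and 53 of the strongest 100. With a score above 0 in both parts they were 17, 27 and 41. By groups of 20% from the strongest to the weakest, 60, 12, 10, 5 and 4 members passed, of which 47, 4, 6, 5 and 2 had both parts. Members that passed had a median signal of 204 in replicate 1 and 187 in replicate 2, against 65.5 and 70.9 in members that did not. The strongest member that did not pass was mog-4, a splicing helicase of the germ line's sperm-to-oocyte switch (402 in replicate 1 and 427 in replicate 2). Of the members that passed, 71 of 91 (78%) were in both replicates' lists, and of the others 195 of 555 (35.1%). Recovery rose with signal in all members, so this difference is not separate from that in signal. Members that passed with both parts had a median pooled signal of 407, and those with the first part only 345. The middle of the sequence lay 20 bp from the summit in the median member, and 90% lay within 50 bp. It read along the gene's strand in 57 of 91 members (62.6%, 51.9 to 72.6%). Among the 64 members with both parts, the place of the second word began 23 bases after that of the first in 40, 22 bases in 20 and 21 bases in 4. Only spacings of 21 to 23 bases were searched, and the most frequent one lay at the upper limit of the search.

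Across the genome, the closest matches to it lay under listed peaks more often than weaker ones. Of 56 places where both 9-base words stood at this spacing, 42 (75%, 61.6 to 85.6%) lay in a listed peak, 17 of them in a member. The words were noticed in members, and 23 occurrences in other listed peaks made the matrix. This share therefore counts again places from which the sequence was described, and is not independent of them. In the windows of genes of 1 strand, places the matrix was not made from were ranked by score. Of the best 25, 21 lay in a listed peak, and of the next 25, 19. Of the 50 that followed it was 22, of the next 100 it was 21, and of the remaining 1532 it was 30. Of the 1732 matches in these windows, 113 lay in a listed peak and 109 in a member, where the sequence was noticed. Over the whole genome, 33 of the best 50 (66%), 27 of the next 50 (54%), 46 of the next 100 (46%) and 58 of the next 200 (29%) lay in a listed peak. Of all 8742 matches over the cut-off 310 (3.55%) lay in a listed peak, and of the 6711 away from promoters 106 (1.58%) did. Alone, the word CTCCGNAAT occurred 2813 times in the genome with 133 (4.73%) in a listed peak, and TTGTTTANC 4709 times with 128 (2.72%).

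Of the mitochondrial ribosomal protein genes with a member, 6 of 12 passed the score for the long sequence, beside the 14.1% of all members. Both parts scored above 0 in mrps-31 and mrps-18C, only the first part in mrpl-20 and mrpl-44, only the second in mrpl-11 and neither in mrps-35. Of the cytosolic ribosomal proteins 1 of 14 passed (rps-28, first part only), of the germ line list 1 of 17 (glh-1, both parts) and of oxidative phosphorylation 0 of 8. In mrpl-44 the signal was 109 in replicate 1 and 64.1 in replicate 2, in mrps-35 it was 62.8 in replicate 1 and 105.4 in replicate 2, and in mrps-18C it was 103 in replicate 1 and 43.0 in replicate 2. These 3 were far below mrpl-11 and mrpl-20, which ranked 31 and 61 among the members. In other lists both parts scored above 0 in taf-8, npp-23, eif-3.B and col-8, the first part only in npp-13, and the second only in rpb-6, set-2 and fbxa-95. The counts are small, and whether the lists differ was not tested.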

How the data were processed

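The authors deposited narrowPeak lists on build ce11 per the labels: for each replicate and for both pooled, a ranked list of candidates and a thresholded list, with a further conservative list. The deposited signal is a value per peak relative to a control, and the deposited score of every listed peak was at least 830. Aligner and peak caller: not given in the sources used here. Read depth is unknown. Exact (Clopper-Pearson) 95% intervals cover counting error alone and take each peak as an independent draw. Pooled signal is close to the sum of both replicates and is not compared with theirs.

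Summits were classed with Ensembl release 115 (WBcel235, the same chromosomes as ce11). A member's value in a replicate is the highest signal among overlapping candidates in its ranked list. Where a member overlaps a stronger peak, that value can be the stronger peak's. The 6-mer tests were tested on simulated data. Python 3.11.15, numpy 2.4.6, scipy 1.17.1 and matplotlib 3.10.9 were used. Members, lists and 13 motifs were chosen with earlier results of these data known, and the long sequence and the 8 words searched genome-wide after their values were seen. Genes were named by signal rank among all members, per list, per position and place, at the limits of the rule and by replicate ratio. Peaks at chemoreceptor genes are not named here.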

Additional observations from a re-analysis of the deposited data

How the results depend on the processing

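No paired analysis was possible because both samples belong to 1 group. Gene lists and the long sequence were counted apart. Of the other values recomputed under other settings, 64 stayed within their interval or replicate spread and 38 moved, and no direction changed. With 1 replicate's own list, the share of listed peaks at one-sided promoters was 29.0 to 31.4%, the ratio of median signal was 0.803 to 0.899 against windows of both strands and 1.18 to 1.21 against peaks away from promoters, the median offset was -242 to -234 bp, summits within 250 bp upstream were 38.7 to 39.9% and summits outside genes 73.5 to 74.4%, with 124 to 160 6-mers and 375 to 387 genes. With a 500 bp window these were 25.04% of peaks, a ratio of 1.22 against peaks away, an offset of -175.5 bp, 46.8% within 250 bp, 1 strand-specific 6-mer and a rho of 0.737. With 2000 bp they were 32.9%, ratios of 0.854 and 1.15, -443.5 bp, 22.4% and 62.0% outside genes. The stronger 50% of peaks gave 75.4% of members in both own lists, a ratio of 1.115, -232 bp, 42.2%, 78.6%, 128 6-mers, 348 genes and a rho of 0.798. Keeping peaks near tRNA genes gave 31.3%, 1.13 and -262 bp, and requiring no other kind of gene on the opposite strand gave 25.7%. The conservative list gave a rho of 0.729, and a centre of 200 bp gave 17 strand-specific 6-mers. Of the 26 gene lists, 4 moved with a 500 bp window and 4 against the 5.95% of genes with a candidate peak. With 500 bp, 2.41% of histone genes had a member, below the 2.74% of all genes. In the main window histones had 7.23%, above the 3.13% of all genes. The share with the long sequence was 13.3% at a cut-off passed by 0.5% of flanks, 14.4% in the conservative list and 9.91% where each part also had to score above 0, all chosen after seeing the data. The cause of these shifts was not tested. Depth is unknown, so a missing peak does not show absence.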

Other observations

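Members that did not pass the score for the long sequence shared other words, all chosen after their values were seen and given with no test. CGCCAGCAA was present in the 100 bp around 8 summits and in 0 of 646 flanks, led by hcp-3 and cpg-1, and 4 of the 8 were in the strongest 20% of members. CAGTCAGCC was present at 5 summits and 0 flanks (mog-4, rpa-2, Y53C12A.11, F28F8.7 and ZC204.13), and all 5 were in both replicates' lists. CCCCTTACG was present at 5 summits and 0 flanks (mtcu-2, unc-85, F44E7.4, vps-39 and npp-18). Of its occurrences in the genome, 11 (9.82%) lay in a listed peak.

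Other words were less concentrated in strong members. TCTCGCCAC was present at 15 summits and 0 flanks, with 1 of the 15 in the strongest 20% and a median signal of 128.9. It occurred 2298 times in the genome, and 2.44% of these lay in a listed peak. AGGCGCATG was present at 10 summits and 0 flanks, with 0 in the strongest 20% and 5 in the middle 20%. Of its 479 occurrences in the genome, 31 (6.47%) lay in a listed peak. GACGCAGAG was present at 15 summits and 1 flank, spread over all 5 groups by signal (4, 3, 3, 3 and 2 members), and 2 of the 15 also passed the score for the long sequence. In the genome, 54 of its 1874 occurrences (2.88%) lay in a listed peak. Whether these words belong to repeated sequences was not tested.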
